A study of Mus musculus with 16 samples.

Results

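The 10 genes described here encode hypothalamic neurohormones and arousal transmitters or act directly on them: the peptide precursor genes Avp, Oxt, Trh, Ghrh, Gal, Gnrh1, Pmch and Hcrt, the histamine-synthesising enzyme gene Hdc and the orexin receptor gene Hcrtr2. They were chosen by name, and all 10 were found among the 24176 genes of the deposited table. They were measured by RNA sequencing of brain tissue in 16 libraries, with 2 libraries in each of 8 groups. The hypothalamic groups came from B6/129 F1 mice aged 8 weeks, either wild type or labelled Vglut2-Cre;Rai1CKO. The cortical groups came from B6/FVB F1 mice aged 3 weeks, either wild type or Nestin-Cre;Rai1CKO. The striatal groups came from B6/FVB F1 mice aged 3 or 12 weeks, either wild type or Gad2-Cre;Rai1CKO. Rai1CKO stands for a conditional knockout of Rai1, a gene for a chromatin-associated nuclear protein whose loss causes Smith-Magenis syndrome, a disorder with disturbed sleep and feeding. Vglut2-Cre is active in glutamatergic neurons that express Slc17a6, Gad2-Cre in GABAergic neurons and Nestin-Cre in neural progenitors and their descendants. The labels do not say whether the wild-type mice carried the floxed allele or a Cre.

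Hypothalamic peptide hormones are made as precursors, cut and packed into dense-core vesicles, and released either into blood or onto other neurons. Vasopressin and oxytocin are released from the posterior pituitary and regulate water balance, and birth and lactation, while TRH, GHRH and GnRH act on the anterior pituitary. Orexin neurons, which express Hcrt, keep animals awake and are lost in narcolepsy. Melanin-concentrating hormone neurons, which express Pmch, lie beside them in the lateral hypothalamus and are linked to feeding and sleep. Histamine neurons of the tuberomammillary nucleus express Hdc and carry much of the orexin signal for waking through the receptor encoded by Hcrtr2.

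The libraries labelled knockout and wild type are named by their labels, because Rai1 itself followed them only in cortex. In hypothalamus Rai1 was at 3.68 and 3.99 RPKM (reads scaled by gene length and by library depth) in the wild-type libraries and at 8.47 and 6.52 in those labelled knockout (log2 change 0.87, SE 0.17, limma adjusted p = 0.481). It was also higher in the striatal libraries labelled knockout, at 6.52 and 7.01 beside 3.77 and 3.24 at 3 weeks (adjusted p = 0.222) and at 12.3 and 13.3 beside 5.08 and 4.88 at 12 weeks (adjusted p = 0.0164). In cortex the libraries labelled knockout were the lower ones, at 4.28 and 3.03 beside 4.35 and 5.70 (adjusted p = 0.726). The deposited value covers the whole gene, and which exons were deleted was not given in the sources used here. A sum over marker genes served to check the tissue: the summed level of 10 hypothalamic marker genes was 91.7 to 103.4 RPKM in the 4 hypothalamic libraries and at most 8.18 in the 12 others, so the tissue label was borne out by these markers. Libraries held an estimated 21708000 to 35636000 reads. One cortical library, knockout replicate 1, stood apart for several of the genes described here, and their log2 changes in cortex are given with and without it. Whether replicates were separate animals is not stated in the labels. P-values therefore reflect variation between libraries only, which may be technical. In whole tissue, fewer cells of a type and less RNA per cell cannot be told apart.

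The order of the levels in wild-type hypothalamus was led by the lateral hypothalamic peptides. Pmch was at 87.8 ± 3.39 RPKM (SD, n = 2), rank 127 of 24176 genes, and Hcrt at 75.0 ± 0.858, rank 164. Avp followed at 48.8 ± 5.30, Trh at 28.3 ± 5.65, Oxt at 23.99 ± 12.3 and Hdc at 10.4 ± 1.55. Hcrtr2 was at 3.39 ± 0.216 and Gal, for the inhibitory peptide galanin, at 2.89 ± 0.573. Ghrh, at 0.587 ± 0.578, and Gnrh1, at 0.213 ± 0.0108, were the lowest, and each rested on few reads. Levels are per length of the gene, with a length chosen by the authors. The libraries of neighbours in this order did not overlap, except for Trh with Oxt, Hcrtr2 with Gal, and Ghrh with Gnrh1, whose libraries did.

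**Figure D1:**
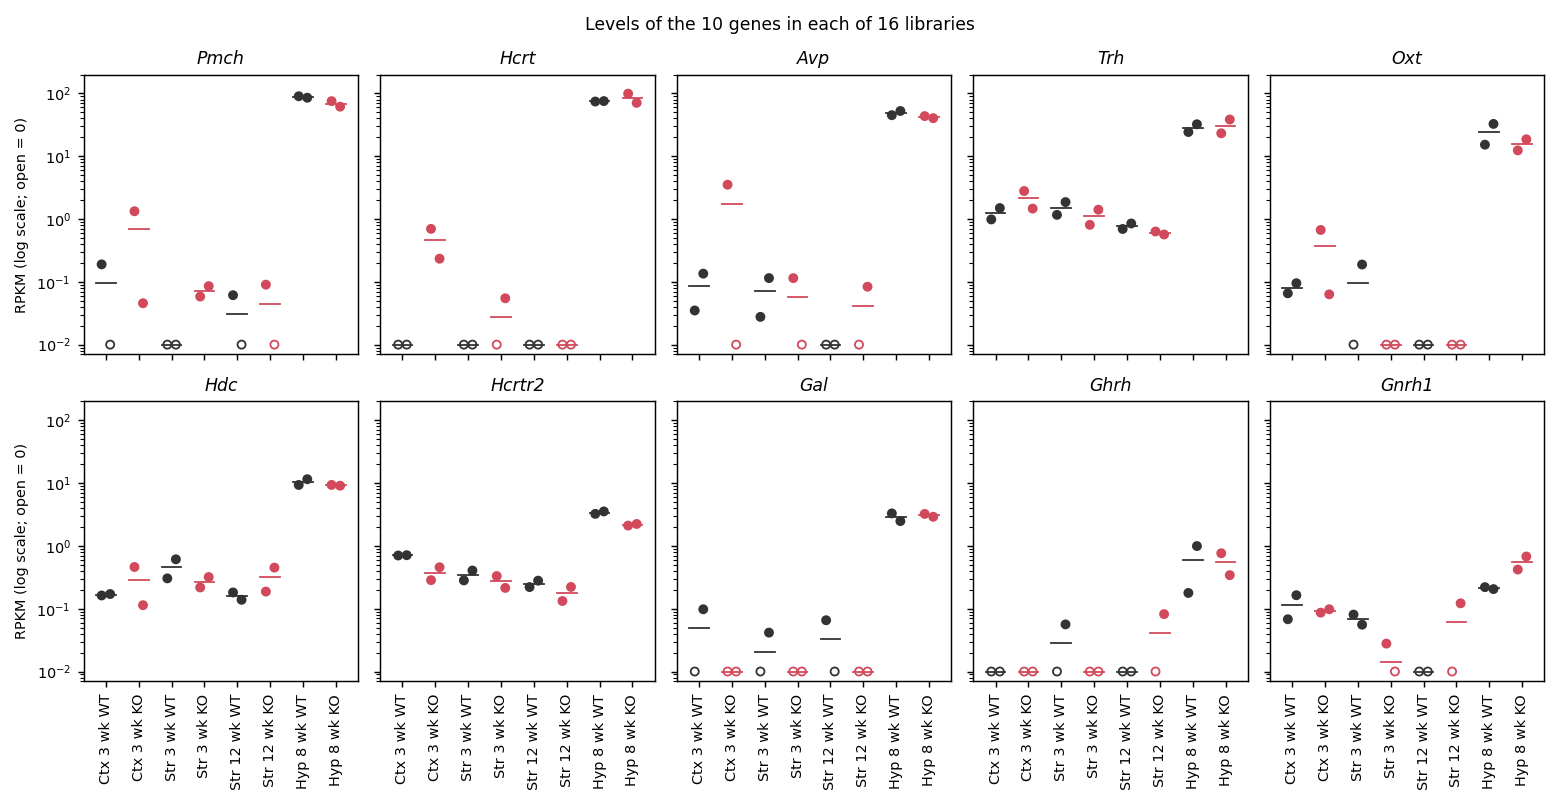
RPKM on a log axis for each of the 10 genes, ordered by wild-type hypothalamic level, in cortex (Ctx), striatum (Str) and hypothalamus (Hyp). Points are libraries, open circles at the bottom are libraries listed at 0, bars are group means, grey is wild type (WT) and red is knockout (KO). Pmch, Hcrt, Avp, Trh, Oxt and Hdc are above 9 RPKM in each hypothalamic library and below 4 RPKM in each library outside it.

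The genotype comparison in hypothalamus asked whether these genes differ after deletion with Vglut2-Cre. Of the 10 genes, 8 reached 1 RPKM in at least 2 libraries and were tested; Ghrh and Gnrh1 did not. No gene of the 8 passed the test at an adjusted p of 0.05 (limma), against 0.0081% of the 12348 genes tested, which is 1 gene. In this fit, whose spread is pooled over all groups, 1 of the 8 had an unadjusted p under 0.05, Hcrtr2, against 1.76% of all genes tested. The estimates were lower in the libraries labelled knockout for 5 genes and higher for 3. Their median log2 change was -0.19, beside -0.06 over all genes tested.

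Hcrtr2 encodes orexin receptor 2, through which orexin excites histamine neurons. Its level was 3.24 and 3.54 RPKM in the wild-type libraries and 2.11 and 2.24 in those labelled knockout. Both knockout libraries were below both wild-type ones, with a gap wider than the spread within either group. The log2 change was -0.54 (SE 0.14, 95% interval -0.85 to -0.23, unadjusted p = 0.00231, limma adjusted p = 1), so it did not pass over all genes. Across 8 other settings the adjusted p ranged from 0.278 to 1, and across the 4 fits that left out a hypothalamic library from 0.968 to 1. Slc17a6, the gene of the vesicular glutamate transporter VGLUT2 that drives the Cre, was also separated in the same direction, at 42.5 and 42.4 RPKM against 31.0 and 32.0. Of the 10 thalamic markers, a list that holds Slc17a6, 3 were lower in both knockout libraries, beside 24.6% of all genes tested. Their summed level was 85.6 and 91.2 RPKM in wild type and 71.1 and 80.3 in the libraries labelled knockout, and without Slc17a6 it was 43.1 and 48.8 against 40.2 and 48.3, which overlap. No thalamic marker was at 0, and the 9 without Slc17a6 ranged from Tcf7l2, at 0.207 to 0.248 RPKM, to Calb2, at 30.8 to 36.9. The 10 myelin markers summed to 812 and 784 RPKM in wild type and to 816 and 953 in the libraries labelled knockout. None of them was at 0. The part of these markers in the Hcrtr2 value was not tested.

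Estimates for Hcrtr2 were below 0 in all 4 region and age sets. Over all genes tested, 68.9% of estimates were below 0 in hypothalamus and 54.7% in cortex. In striatum 72.7% were at 3 weeks and 30% at 12 weeks. The share of genes below 0 in all 4 sets was not counted. In cortex at 3 weeks Hcrtr2 was at 0.704 and 0.712 RPKM in wild type and at 0.285 and 0.458 in the libraries labelled knockout (log2 change -0.48, SE 0.14, limma adjusted p = 0.413). The cortical groups did not overlap. The same libraries had myelin marker sums of 685 and 799.5 RPKM in wild type and 1254 and 1202 in those labelled knockout. None of the 10 myelin markers was at 0. Their part in the Hcrtr2 value was not tested. In striatum at 3 weeks Hcrtr2 was at 0.282 and 0.406 against 0.331 and 0.214, and at 12 weeks at 0.221 and 0.280 against 0.133 and 0.222, and the groups overlapped at both ages. The log2 changes in striatum were -0.13 at 3 weeks and -0.15 at 12 weeks, each with an SE of 0.14. The mean of the 4 differences, chosen after their direction was seen, was -0.32 (SE 0.07, unadjusted p = 0.000562, limma adjusted p = 0.11), and 0.373% of all genes tested passed in that mean. Leaving out a library gave adjusted p-values from 0.0581 to 0.331. Other settings gave 0.0648 to 0.327. A lower mean level of Hcrtr2 over the 4 sets therefore did not pass. Outside the hypothalamus Hcrtr2 was at most 0.712 RPKM. It entered the cortical and striatal tests, and so this mean, through its hypothalamic level.

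**Figure D2:**
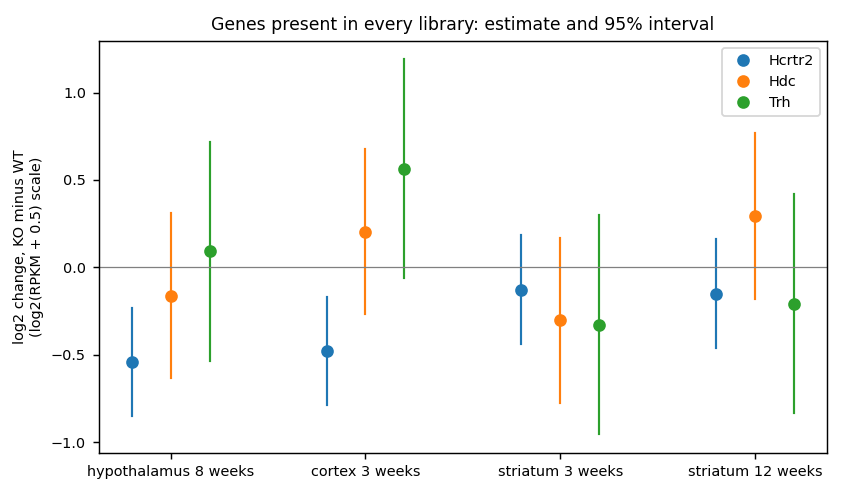
Log2 change (knockout minus wild type, log2(RPKM + 0.5) scale) of Hcrtr2, Hdc and Trh, which were above 0 in each of the 16 libraries, in the 4 region and age sets. Points are estimates and bars are 95% intervals from limma; the estimate of Hcrtr2 is below 0 in each set, and its interval excludes 0, unadjusted, in hypothalamus and cortex.

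The orexin ligand gene did not follow its receptor. Hcrt was at 74.3 and 75.6 RPKM in wild-type hypothalamus and at 99.2 and 70.9 in the libraries labelled knockout. The knockout libraries lay on either side of the wild-type pair. The log2 change was 0.16 (SE 0.20, limma adjusted p = 1), and without knockout replicate 1 it was -0.08. Hcrtr1, for the other orexin receptor, was at 1.004 and 1.009 RPKM in wild type and at 0.682 and 1.24 in the libraries labelled knockout, which again lay on either side.

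Pmch was at 90.2 and 85.4 RPKM in wild type and at 75.3 and 61.6 in the libraries labelled knockout. Both knockout libraries were lower, but the log2 change of -0.36 (SE 0.37, 95% interval -1.16 to 0.44, limma adjusted p = 1) did not pass. The SE is pooled over all 8 groups, among them the cortical libraries labelled knockout, where Pmch was at 1.33 and 0.0456 RPKM. Fitted on the hypothalamic groups alone, Pmch had an SE of 0.15 (unadjusted p = 0.0269, limma adjusted p = 0.911). The ratio of Hcrt to Pmch, 2 peptides of neighbouring neurons in the lateral hypothalamus, was 0.824 and 0.885 in the wild-type libraries. It was 1.32 and 1.15 in those labelled knockout. Which gene is the higher depends on the gene lengths: at GENCODE exon lengths the ratio would be 0.644 and 0.691 in wild type and 1.03 and 0.898 in the libraries labelled knockout. The 2 knockout ratios lie above the 2 wild-type ones. Gene lengths scale the ratio alike in each library, so the choice of lengths cannot change this order. With 2 libraries against 2, an exact permutation test cannot go below p = 0.333, and none is given. Mchr1, for the receptor of melanin-concentrating hormone, was at 3.38 and 3.79 in wild type and at 3.21 and 2.99 in the libraries labelled knockout (limma adjusted p = 1).

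Avp and Oxt, for vasopressin and oxytocin, are neighbouring genes that arose by duplication, and the neurophysin part of their precursors is in part encoded by an identical stretch. In the GENCODE M21 transcripts, of 577 bases for Avp and 537 for Oxt, the longest identical run is 127 bases. It covers positions 144 to 270 of Avp and 156 to 282 of Oxt, inside the longest open reading frame of each. The run is shown in capitals, with 20 bases of each transcript on either side in lower case, because reads that lie within it cannot be assigned to 1 of the genes by their letters.
Avp: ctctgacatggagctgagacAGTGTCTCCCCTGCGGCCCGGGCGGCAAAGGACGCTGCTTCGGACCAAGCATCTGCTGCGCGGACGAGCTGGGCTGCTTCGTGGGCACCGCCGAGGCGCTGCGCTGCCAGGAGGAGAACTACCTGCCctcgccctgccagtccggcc
Oxt: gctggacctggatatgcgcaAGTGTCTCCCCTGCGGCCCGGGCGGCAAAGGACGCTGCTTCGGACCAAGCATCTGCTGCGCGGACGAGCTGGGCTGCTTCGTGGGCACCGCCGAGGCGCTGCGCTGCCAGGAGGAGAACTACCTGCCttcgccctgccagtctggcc
The run makes up 22.0% of the Avp transcript and 23.6% of the Oxt transcript. The counting of reads that match both genes was not given in the sources used here, and low values of either gene beside the other are uncertain.

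Avp was at 45.1 and 52.6 RPKM in wild-type hypothalamus and at 43.6 and 40.4 in the libraries labelled knockout. The groups did not overlap, but the 2 libraries nearest each other differed less than the libraries within each group. The log2 change was -0.21 (SE 0.60, 95% interval -1.498 to 1.07, limma adjusted p = 1). That SE is pooled over all groups, among them the cortical libraries labelled knockout, where Avp was at 3.52 and 0 RPKM. Fitted on the hypothalamic groups alone, Avp had an SE of 0.13 (unadjusted p = 0.128, limma adjusted p = 0.919). Oxt was at 15.3 and 32.7 in wild type and at 12.4 and 18.6 in the libraries labelled knockout. Wild-type replicate 2 stood above the other 3 libraries, and the groups overlapped. The log2 change of Oxt was -0.54 (SE 0.34, limma adjusted p = 1), and it was -0.01 without wild-type replicate 2. The ratio of Oxt to Avp, given the shared run only as a description, was 0.339 and 0.622 in wild type and 0.284 and 0.461 in the libraries labelled knockout. Being separated and lower held for 3 of the 8 tested genes, Hcrtr2, Pmch and Avp, beside 24.6% of all genes tested.

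Trh encodes thyrotropin-releasing hormone, which drives the thyroid axis from the paraventricular nucleus. Its level was 24.3 and 32.3 RPKM in wild-type hypothalamus and at 23.2 and 38.5 in the libraries labelled knockout. Here too the knockout libraries were the lowest and the highest of the 4. The log2 change was 0.09 (SE 0.29), and it turned to -0.11 without wild-type replicate 1 and to -0.27 without knockout replicate 2. Trhr, its receptor, was at 3.41 and 3.21 in wild type and at 1.91 and 2.50 in the libraries labelled knockout (log2 change -0.50, SE 0.18, unadjusted p = 0.016, limma adjusted p = 1). The Trhr groups did not overlap.

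Gal was at 3.30 and 2.48 RPKM in wild type and at 3.23 and 2.91 in the libraries labelled knockout. The knockout libraries lay between the wild-type ones (log2 change 0.08, SE 0.15, 95% interval -0.24 to 0.40). Without wild-type replicate 2 the log2 change was -0.09. Hdc was at 9.35 and 11.5 in wild type and at 9.35 and 9.10 in the libraries labelled knockout. The groups touched, and the log2 change was -0.16 (SE 0.22, 95% interval -0.64 to 0.31). Both had a limma adjusted p of 1. Mast cells also make histamine through Hdc. Of 8 mast cell markers, a list that holds Hdc itself, Fcer1a and Ms4a2 were at 0 in all 4 hypothalamic libraries. Cpa3, Cma1, Mcpt4 and Tpsb2 were at most 0.0951, 0.0642, 0.233 and 0.127 RPKM, and Kit, which neurons also express, was at 3.21 to 3.82. Without Hdc the list summed to 3.73 and 3.52 RPKM in wild type and to 3.84 and 3.73 in the libraries labelled knockout.

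Ghrh, the growth hormone-releasing hormone gene, was at 0.178 and 0.995 RPKM in wild type and at 0.764 and 0.342 in the libraries labelled knockout. These are about 2, 12, 9 and 4 reads, and the groups overlapped. Gnrh1, for the hormone that drives the gonadal axis from a small scattered set of neurons, was at 0.221 and 0.205 in wild type and at 0.420 and 0.678 in the libraries labelled knockout. Both knockout libraries were higher, on about 5 and 8 reads against 2.5 in each wild-type library, where steps of 0.5 read occur in the table. The wild-type values lie under the 3 reads taken as a floor, so no fold is given. In the fit without a filter the log2 change of Gnrh1 was 0.55 (SE 0.12, limma adjusted p = 0.368).

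**Figure D3:**
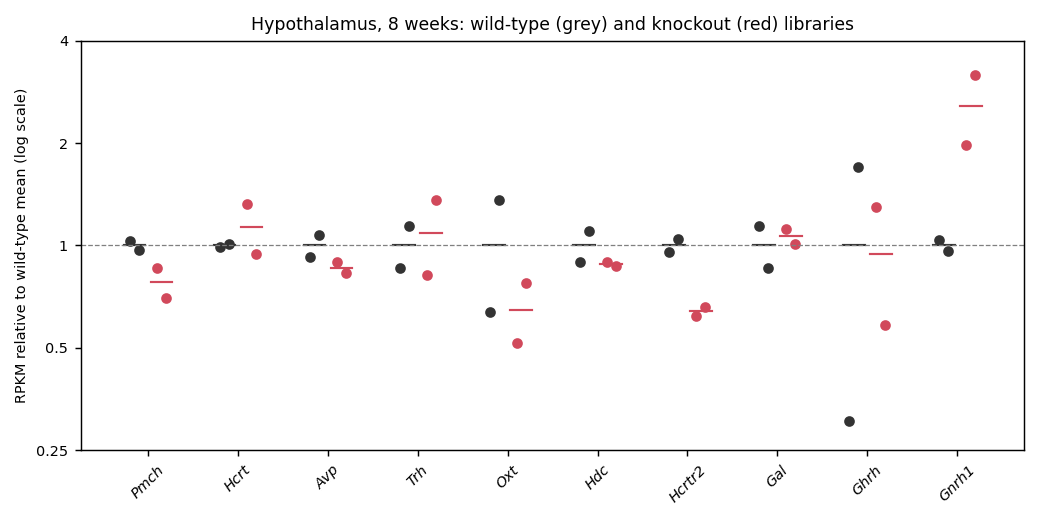
RPKM of each hypothalamic library divided by the wild-type mean of that gene, on a log axis. Points are libraries and bars are group means, grey for wild type and red for knockout; the knockout points of Pmch, Avp and Hcrtr2 lie below and those of Gnrh1 above the wild-type points, and the other 6 genes overlap.

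The partner genes of these hormones were read from lists of receptors, processing enzymes, amine handling genes, other peptides and transcription factors. None of the members tested on these 5 lists passed in hypothalamus (limma). Over all genes tested in this comparison, 68.9% of estimates were below 0, the median was -0.06 and 1.76% had an unadjusted p under 0.05, and the counts that follow are to be read beside these. Of 18 receptors, 11 were tested, with 10 estimates below 0 and a median log2 change of -0.11, and 2 had an unadjusted p under 0.05, Hcrtr2 and Trhr. Avpr1a, a vasopressin receptor, was at 1.67 and 1.73 RPKM in wild type and at 1.34 and 1.36 in the libraries labelled knockout. Galr1, a galanin receptor, was at 4.16 and 4.91 against 4.57 and 5.89. The Avpr1a groups did not overlap and the Galr1 groups did.

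All 15 genes of peptide processing and dense-core vesicles were tested, with 13 estimates below 0, a median of -0.14 and none with an unadjusted p under 0.05. Qpct, which caps the amino end of peptides such as TRH and GnRH, was at 7.41 and 6.86 RPKM in wild type and at 5.15 and 6.07 in the libraries labelled knockout. Pcsk1, a precursor-cutting convertase, was at 12.9 and 14.4 against 10.9 and 11.8. Cpe, the carboxypeptidase that trims the cut ends, was at 214 and 239 against 171 and 202. The groups of these 3 genes did not overlap, as for 9 of the 15 that were separated and lower, beside the 24.6% given above.

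Of 12 histamine and monoamine handling genes, 10 were tested, with 7 estimates below 0 and a median of -0.08. Slc22a3, for a transporter that clears histamine and other amines, was at 0.0527 and 0.172 RPKM in wild type and at 0.483 and 0.227 in the libraries labelled knockout (log2 change 0.47, SE 0.16, unadjusted p = 0.00996, limma adjusted p = 1). It was the only gene of this list with an unadjusted p under 0.05. Hnmt, which inactivates histamine by methylation, was at 5.54 and 5.68 against 4.58 and 5.38, and Ddc, which makes dopamine and serotonin, at 9.49 and 8.53 against 7.05 and 8.96. The Hnmt groups did not overlap and the Ddc groups did.

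Other peptides had the lowest median of the 5 lists, -0.36 over the 11 of 19 that were tested, with 8 estimates below 0 and 3 unadjusted p-values under 0.05, all lower. Tac1, for substance P, was at 14.4 and 15.9 RPKM in wild type and at 8.70 and 8.32 in the libraries labelled knockout (log2 change -0.80, SE 0.29, unadjusted p = 0.0173). Adcyap1, for the peptide PACAP, was at 19.7 and 17.9 against 13.5 and 13.8 (-0.44, SE 0.16, unadjusted p = 0.0151). Npvf, for RFamide-related peptides, was at 1.22 and 1.44 against 0.774 and 1.09 (-0.36, SE 0.14, unadjusted p = 0.02). All 3 were separated between the groups, and all 3 had a limma adjusted p of 1.

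Of 20 transcription factors of hormone and arousal neurons, 12 were tested, with 7 estimates below 0 and a median of -0.04. Nr5a1, which marks the ventromedial nucleus, was at 2.43 and 2.56 RPKM in wild type and at 3.00 and 3.65 in the libraries labelled knockout (log2 change 0.35, SE 0.13, unadjusted p = 0.0184). Pou3f2, needed for vasopressin and oxytocin neurons to form, was at 2.70 and 3.40 against 2.38 and 2.17 (-0.35, SE 0.15, unadjusted p = 0.0349). Nkx2-4 was at 2.96 and 3.02 against 2.57 and 2.33. The groups of the 3 genes did not overlap, and all 3 had a limma adjusted p of 1.

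**Figure D4:**
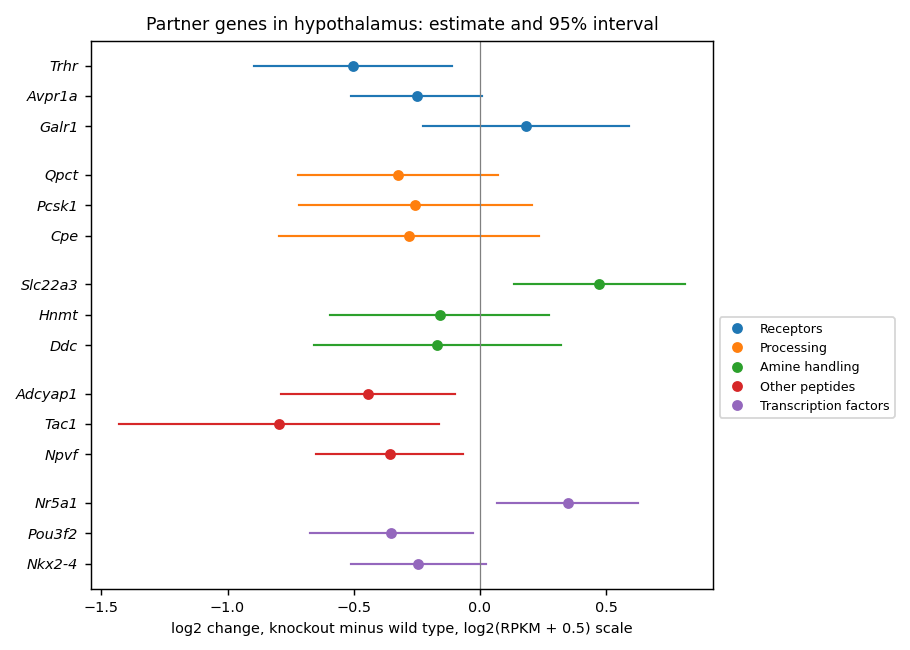
Log2 change in hypothalamus (knockout minus wild type, log2(RPKM + 0.5) scale) of the 3 genes of smallest p on each of 5 lists of partner genes. Points are estimates, bars are 95% intervals from limma, unadjusted, and colours are lists; Tac1 has the lowest estimate, -0.80, and no gene passed after adjustment.

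The anterior pituitary is the target of several of these hormones, and its markers were checked in the hypothalamic libraries. Gh, Prl, Pou1f1 and Ghrhr, 4 of 12 markers, were at 0 in all 4 libraries. The summed level was 17.0 to 17.4 RPKM in wild type and 20.5 to 23.0 in the libraries labelled knockout. Most of it was Pomc, which hypothalamic neurons also express, at 12.0 to 19.2 RPKM.

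Outside the hypothalamus the 10 genes fell into those present in each library and those listed at 0 in several. Trh, Hdc and Hcrtr2 were above the 3-read floor in all 12 cortical and striatal libraries. Hcrt was listed at 0 in 9 of the 12, Gal in 9, Ghrh in 10, Oxt in 7, Avp and Pmch in 5 each and Gnrh1 in 4. No library outside the hypothalamus had Gal, Ghrh or Gnrh1 above the floor.

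Hcrtr2 had the least difference between regions among the tested genes. It was 4.78 times higher in wild-type hypothalamus than in wild-type cortex (95% counting interval 3.99 to 5.76, from about 570 and 152 reads) and 13.4 times higher than in wild-type striatum at 12 weeks (9.77 to 18.8). No test is given, since Hcrtr2 reached 1 RPKM in hypothalamus only. Region, strain and age differ together in these comparisons and cannot be told apart. Ratios were larger for the amine enzyme and the hormones. Hdc was 62.8 times higher than in cortex (46.9 to 86.0) and 65.6 times higher than in striatum at 12 weeks (46.8 to 94.99), and Trh 22.8 (18.6 to 28.2) and 36.4 times (27.3 to 49.5). Trh also reached 1 RPKM outside the hypothalamus, and its log2 difference was 4.05 from cortex (SE 0.29, limma adjusted p = 1.73e-07), where 56% of all genes tested passed and the median gene was higher by 0.34. From striatum at 12 weeks it was 4.49 (SE 0.29, limma adjusted p = 2.91e-08), where 64.8% passed and the median gene was higher by 0.49.

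For the genes at or near 0 elsewhere, only bounds or wide ratios can be given. Hcrt had no read in wild-type cortex or striatum, and it was at least 838 times higher in hypothalamus than in wild-type cortex and at least 647 times higher than in striatum at 12 weeks, taking 3 reads over the group. Pmch was 941 times higher than in cortex (367 to 3458, on about 4 cortical reads). Avp and Oxt were at least 367 and 194 times higher than in wild-type striatum at 12 weeks, where both were listed at 0. Gal was 57.4 times higher than in cortex (15.4 to 481, on about 2 reads). These intervals cover counting error only.

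The cortical library labelled knockout replicate 1 had higher levels of Avp, Oxt, Pmch and Hcrt than the other 11 libraries outside the hypothalamus. Avp was at 0.0350 and 0.135 RPKM in the wild-type cortical libraries and at 3.52 and 0 in those labelled knockout. The 3.52 RPKM, about 39.5 reads, is 7.22% of the wild-type hypothalamic mean, and the next highest library outside the hypothalamus was at 0.277% of it. Oxt was at 0.0657 and 0.0951 in wild type and at 0.670 and 0.0632 in the libraries labelled knockout, the 0.670 being about 8 reads. Pmch was at 0.190 and 0 against 1.33 and 0.0456, the 1.33 being about 22 reads. Knockout replicate 1 was the highest of the 12 libraries outside the hypothalamus for Avp, Oxt, Trh, Pmch and Hcrt. The lead was smaller for Trh, at 2.79 RPKM with 1.86 in the next library. Knockout replicate 1 was listed at 0 for Gal and Ghrh, and Gnrh1 rested on about 1 read there.

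Hcrt was at 0 in both wild-type cortical libraries and at 0.697 and 0.234 RPKM in those labelled knockout, about 9 and 4 reads. These were the 2 libraries with Hcrt above the floor outside the hypothalamus. The log2 change in cortex was 0.91 (SE 0.20, unadjusted p = 0.00046, limma adjusted p = 0.158), and it did not pass, though it did with a pseudocount of 0.1 (adjusted p = 0.0264). Fitted on the cortical groups alone in limma, Hcrt had an SE of 0.24 (unadjusted p = 0.0101) and did not pass. Trh, Hdc and Hcrtr2 had reads in each cortical library, and none of them passed (limma), against 0.0405% of all genes tested. Of these, Hcrtr2 had an unadjusted p under 0.05, against 6.26% of all genes tested. Hdc and Hcrtr2 were at most 0.612 and 0.712 RPKM outside the hypothalamus. They passed the filter through it, and their cortical tests are of low levels. Avp, Oxt, Gal, Pmch and Hcrt also passed the filter through the hypothalamus. Their cortical tests rest on few reads or none in most libraries and decide nothing. The log2 changes of Avp, Pmch and Oxt were 1.28 (SE 0.60), 0.77 (SE 0.37) and 0.48 (SE 0.34). Without knockout replicate 1 they were -0.22, -0.11 and -0.04. For Hcrt, Trh, Hdc and Hcrtr2 the log2 changes were 0.91, 0.56, 0.20 and -0.48 with that library. They were 0.55, 0.19, -0.12 and -0.33 without it, with only replicate 2 left in the group. Without knockout replicate 2, with only replicate 1 left in the group, Avp (2.79, adjusted p = 1.14e-05), Pmch (1.64, adjusted p = 0.00315) and Hcrt (1.26, adjusted p = 0.0157) passed in limma, with the spread taken from the other groups, since 1 library has none. These p-values describe that library, not the genotype.

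Other genes of the hypothalamus were uneven in that library. Baiap3 was at 3.47 RPKM and Pomc at 0.580, the highest of the 12 libraries, and Irs4 at 0.362 and Foxb1 at 0.0758 were also the highest. Fezf1 was at 0.0294, Sim1 at 0.0369 and Nkx2-1 at 0.126, each below both wild-type cortical libraries, at levels near 0 in all of these libraries. The summed level of the 10 hypothalamic markers was 8.18 RPKM there, the highest of the cortical range from 4.48, beside 91.7 or more in hypothalamus. That sum holds Baiap3, so it is not separate from the 3.47 RPKM above. Wild-type cortical replicate 2 summed to 6.76 with Baiap3 at 1.89, and wild-type striatal replicate 2 at 3 weeks to 7.89. As shares of the wild-type hypothalamic mean, cortical knockout replicate 1 had 9.87% for Trh, 7.22% for Avp, 2.79% for Oxt, 1.52% for Pmch and 0.930% for Hcrt. It had 9.02% for Baiap3, 4.54% for Pomc, 2.75% for Irs4 and 2.04% for Foxb1. The source of these reads was not tested.

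**Figure D5:**
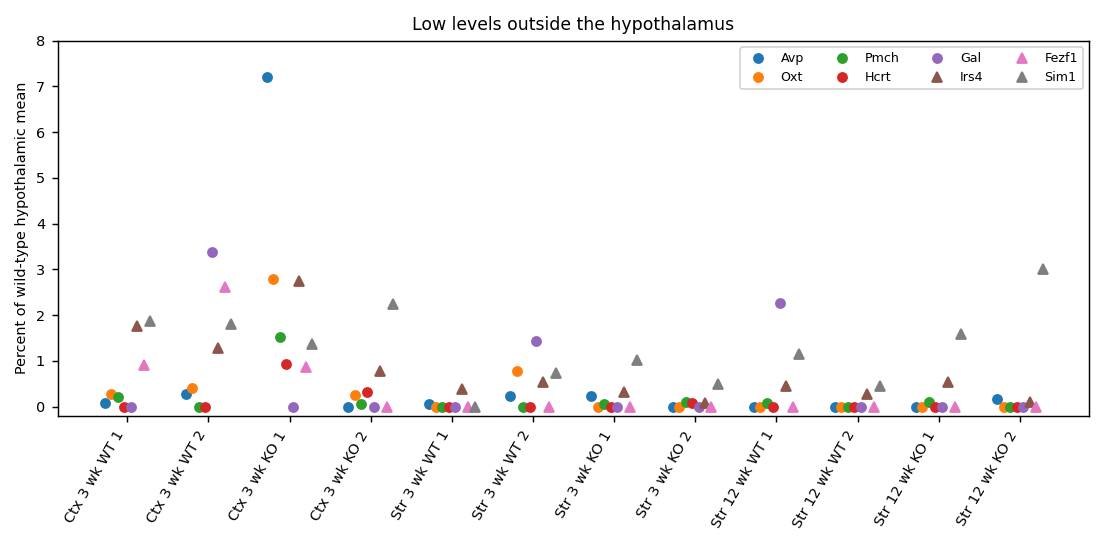
Level in each of the 12 cortical and striatal libraries as a percent of the wild-type hypothalamic mean, for 5 hormone genes (circles) and 3 hypothalamic markers (triangles). Avp, Oxt, Pmch and Hcrt are highest in cortical knockout replicate 1, at 7.22%, 2.79%, 1.52% and 0.930%. Of the 3 markers, Irs4 is also highest there, at 2.75%, while Fezf1 and Sim1 are not raised there.

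Trh was the hormone gene with reads in each library outside the hypothalamus. Its level was 0.986 and 1.497 RPKM in wild-type cortex and at 2.79 and 1.47 in the libraries labelled knockout. In striatum at 3 weeks it was at 1.17 and 1.86 in wild type and at 0.808 and 1.41 in the libraries labelled knockout, and at 12 weeks at 0.695 and 0.850 against 0.634 and 0.567. The genotype groups overlapped except at 12 weeks, where the log2 change of -0.21 (SE 0.29, limma adjusted p = 0.989) did not pass. Hdc was at 0.163 and 0.171 in wild-type cortex and at 0.462 and 0.114 in the libraries labelled knockout. In striatum Hdc was at 0.304 and 0.612 against 0.218 and 0.320 at 3 weeks and at 0.181 and 0.139 against 0.187 and 0.451 at 12 weeks. Trh, Hdc and Hcrtr2 were the genes with reads in each striatal library, and none of the 3 was called at 3 or 12 weeks (limma), where 0.0324% and 0.0405% of all genes tested were. None of the 3 had an unadjusted p under 0.05 in either set, against 7.55% and 4.4%. Of the 3, Hdc and Hcrtr2 passed the filter through the hypothalamus, so their striatal tests are of low levels. Avp, Oxt, Gal, Pmch and Hcrt passed the filter through the hypothalamus and were at or near 0 in striatum, so their tests there say nothing.

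With age in wild-type striatum, the estimates of Trh, Hdc and Hcrtr2 at 12 against 3 weeks were below 0. Over all genes tested in this comparison, 70.9% of estimates were below 0. The log2 change was -0.64 for Trh (SE 0.29, limma adjusted p = 0.106) and -0.52 for Hdc (SE 0.22, limma adjusted p = 0.0852). Neither passed, where 31.5% of all genes tested did and the median log2 change of all genes was -0.23. Fitted on the compared groups alone, both passed in limma, with adjusted p-values of 0.024 and 0.0234. Hdc was at most 0.612 RPKM in striatum and entered this test through its hypothalamic level, so its p-value is given only as a description. Without wild-type replicate 1 at 3 weeks the log2 change of Hdc was -0.75. Trh and Hdc were 2 of the 3 genes with reads in each striatal library, and Hcrtr2 was the other; these 2 had an unadjusted p under 0.05, as did 43.8% of all genes tested. The ependymal list, without its member Hdc, summed to 41.3 and 68.0 RPKM at 3 weeks and 11.1 and 17.2 at 12 weeks. The 10 myelin markers summed to 3325 and 2573 at 3 weeks and 501 and 543 at 12 weeks. The part of these markers in the Trh, Hdc and Hcrtr2 values was not tested.

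Whether the genotype difference itself differed between sets was tested for each pair of the 4 sets. None of the 48 tests on the 8 genes passed (limma), where 0 to 2 of the 12348 genes tested passed in a pair. Pairs without hypothalamus rest on values at or near 0 for Avp, Oxt, Gal, Pmch and Hcrt. Pairs of hypothalamus with another set have such values on 1 side. At an unadjusted p under 0.05 there were 4, of which 3 were for Hcrt and 1 for Trh. The share of all genes at that level was not counted. The 3 for Hcrt are not separate results, since all reuse the cortical comparison of few reads against 0. The difference for Hcrt between hypothalamus and cortex was -0.74 (SE 0.28, unadjusted p = 0.0189, limma adjusted p = 0.999). With cortical knockout replicate 1 alone in its group some tests passed, which describes that library and not the genotype.

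The genes most like each hormone over the 16 libraries were named by Pearson's r on the log2 scale. These values describe a split of 4 hypothalamic from 12 other libraries, which share region, strain and age, and genes are compared within the same libraries. Hcrt was nearest to Pmch (r = 0.997) and then to Irs4 and Foxb1. Pmch was nearest to Hcrt, Irs4 and Pgr15l. Avp was nearest to Pmch (r = 0.991), Gprin2 and Baiap3, a gene for a protein of dense-core vesicle release. Among the genes most like Oxt were Pgr15l and Arhgap36 (r = 0.994 for the latter). Trh was nearest to Pcbd1 (r = 0.993), Baiap3 and Arhgap36. Gal was nearest to B230323A14Rik, C130021I20Rik and Fezf1, a factor of the ventromedial nucleus (r = 0.998 to 0.997). Hdc was nearest to H2-Q2 (r = 0.995), Calcr, the calcitonin receptor gene, and the imprinted gene Peg10. Hcrtr2 had the lowest values, with Ankrd55 (r = 0.986), Fam46a and Mfsd7b, each of which was above 0.7 RPKM in at least 1 library outside the hypothalamus.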

How the data were processed

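Total RNA from cortex, striatum and hypothalamus was sequenced in 16 libraries. The authors deposited 1 table of RPKM values; the submitters' processing notes name CASAVA 1.8.2, cutadapt 1.6, TopHat2 and, as the mouse build, mm9. How reads were counted, with or without strand, how multiply matching reads were treated, and the gene lengths and denominator behind the RPKM were not given in the sources used here. GENCODE M21 annotation of another build gave transcript sequences and lengths only, and no coordinates are printed.

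Tests used limma 3.58.1 (R 4.3.3) after a log2(RPKM + 0.5) transform. All 16 libraries entered a model of 8 group means with a variance trend and 8 residual degrees of freedom. The 12348 genes that reached 1 RPKM in 2 or more libraries were tested. P-values were adjusted by Benjamini-Hochberg over all genes within a comparison, with a threshold of 0.05. Because of the added 0.5, log2 changes, all on the log2(RPKM + 0.5) scale, are too small for low genes. The fit was tested on simulated data.

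Library reads were estimated from the smallest RPKM steps of single-exon genes: 81.6% to 90.5% of the 142 to 200 such genes per library gave whole reads within 0.05 read, and 97.9% to 100% gave whole reads or steps of 0.5. The floor for a value of 0 is 3 reads. Ratios between regions come from these reads, with exact 95% intervals for counting error only.

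The 10 genes, the lists of partner and marker genes and the tests were chosen with earlier results of these data known. Named genes are the 10, up to 3 genes of smallest p on each partner list in hypothalamus, the 3 nearest genes of each tested gene by Pearson's r (1 of them is not reported here), and Rai1, Slc17a6 and Gad2 as checks. Gad2 was at 40.7 and 50.1 RPKM in wild-type hypothalamus and at 31.2 and 41.2 in the libraries labelled knockout. In striatum, the tissue labelled Gad2-Cre, it was at 35.7 and 43.5 against 20.6 and 23.3 at 3 weeks (limma adjusted p = 0.283). At 12 weeks it was at 29.9 and 38.1 against 25.2 and 22.5 (limma adjusted p = 0.989). In cortex, labelled Nestin-Cre, it was at 21.6 and 22.2 against 15.9 and 18.1 (limma adjusted p = 0.827). Alternatives were pseudocounts of 0.1 and 1, other filters, median-ratio scaling, a fit of the compared groups alone, no variance trend, a replicate block and leaving out each library.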

Additional observations from a re-analysis of the deposited data

How the results depend on the processing

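No call on a single gene of the 10 was made between genotypes, and the alternatives that gave one are named beside the result. Counts over all genes moved more. In hypothalamus 1 gene was called, against 0 with a pseudocount of 0.1, with a filter of 1 RPKM in 4 libraries, with median-ratio scaling and with the replicate block, 4 with no filter, 10 on the compared groups alone, and 0 to 1 with a library left out. In cortex 5 were called, against 8 with a pseudocount of 1, 34 with no filter, 39 with median-ratio scaling, 0 on the compared groups, 3 with the replicate block and 2 to 8 with a library left out. In striatum at 3 weeks 4 were called, against 0 on the compared groups, 1 with the block and 0 to 2 with a library left out. In striatum at 12 weeks 5 were called, against 9 with median-ratio scaling, 13 on the compared groups, 1 with the block and 1 to 7 with a library left out. With a library left out, wild-type hypothalamus against cortex gave 4465 to 5584 calls and against striatum at 12 weeks 5749 to 8068, striatal age gave 1494 to 4287, and genotype differences between sets gave 0 to 4 for the 10 genes. Some log2 changes turned direction with a library left out. In cortex the range was -0.2213 to 2.7869 for Avp, -0.0429 to 1.0117 for Oxt, -0.106 to 1.6398 for Pmch and -0.1198 to 0.5282 for Hdc, the lowest without knockout replicate 1 and the highest without knockout replicate 2. In hypothalamus it was -0.2675 to 0.4502 for Trh, -0.0892 to 0.2574 for Gal and -0.0801 to 0.4026 for Hcrt. Where a count or direction moved, the cause was not tested.

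The labels share replicate numbers without saying what a number marks. Deviations of same-numbered libraries correlated at 0.15 in hypothalamus, -0.34 in cortex, 0.44 in striatum at 3 weeks and -0.22 at 12 weeks. The fit with the block changed no call on the 10 genes. Ghrh, Gnrh1 and levels outside the hypothalamus rest on few reads, which limits their precision.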
